A study of Ovis aries with 3 samples.

Results

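*CDX1*, *CDX2* and *CDX4* are the caudal-type homeobox genes, and all 3 were found by their symbols among the 26478 genes of the count tables, as ENSOARG00020011893, ENSOARG00020011783 and ENSOARG00020019400. Single-cell RNA sequencing of whole sheep embryos gave 3 libraries, each the only one of its condition. E19 HSTS came from an embryo of Hulunbuir short-tailed sheep on day 19, a breed whose tested animals were homozygous for a mutation in the *T* gene, which encodes brachyury. E19 HS and E16 HS came from Hu sheep, whose tested animals carried 2 wild-type *T* alleles, on day 19 and day 16. The label of E16 HS names 1 embryo, while the study's methods speak of 3, and whether these were pooled is not settled here. The breeds may differ in more than the *T* allele, so breed, allele and library cannot be told apart, and in the same way neither can stage and library. Red blood cells had been lysed before loading. E16 HSTS was not analysed here.

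CDX proteins are homeodomain transcription factors that set position along the trunk. In the late gastrula and the tail bud they are induced by WNT and FGF signals, keep posterior progenitors going and switch on *HOX* genes of the trunk, and embryos of mice that lack several of them stop extending behind the front of the trunk. *CDX2* is also needed in the trophectoderm and later marks the hindgut and the intestinal lining, *CDX1* is known from the primitive streak, the neural tube and the intestine, and *CDX4* is an X-linked gene of the early posterior embryo. In the RefSeq gene table of assembly ARS-UI_Ramb_v3.0, which is not the build of the count tables, *CDX1* lies on chromosome 5 between *PDGFRB* and *SLC6A7*. *CDX2* lies on chromosome 10 between *URAD* and *PDX1*, the ParaHox neighbour that specifies pancreas and duodenum, and *CDX4* lies on chromosome X between *NAP1L2* and *CHIC1*.

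Kept cells had between 200 and 6000 genes, between 1000 and 30000 unique molecular identifiers (UMIs, the counted molecules) and no more than 10% of them mitochondrial. There were 9618, 10629 and 11329 such cells with a median of 6900 to 9046 UMIs, and here and below a run of 3 values gives E19 HSTS first, then E19 HS, then E16 HS. Pairs of libraries shared 38 to 42 cell barcodes. A cell carries a gene here where it holds at least 1 UMI of it, and a level is the UMIs of a gene per 1000000 UMIs of the same cells (CPM). With 1 library per condition no test between conditions was possible. The intervals in parentheses are exact 95% intervals for counting error only and say nothing about variation between embryos. Blood progenitor-like cells, which should hold little CDX RNA, are given as a measure of free RNA.

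*CDX1* was barely counted. It had 6, 3 and 11 UMIs, each in a cell of its own, which is 0.0624% (0.0229 to 0.136), 0.0282% (0.00582 to 0.0825) and 0.0971% (0.0485 to 0.174) of kept cells. Among blood progenitor-like cells, 0 of 2636, 2 of 1420 and 5 of 2005 had a *CDX1* UMI, so in both Hu sheep libraries its share over all cells was not above that background. In E19 HSTS all 6 UMIs lay in the gut-like cluster, and 4 of the 6 cells also carried *EPCAM*, the epithelial adhesion molecule. Only 1 of the 3 UMIs of E19 HS lay in that cluster. In E16 HS 2 of the 11 cells carried *FGF17*, a tail bud growth factor, and 6 carried none of the markers below. With fewer than 50 UMIs, *CDX1* was left out of the fold comparisons, and 2 of the 3 members passed that minimum.

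*CDX2* and *CDX4* were both about 8 times as high in E16 HS as in E19 HS. *CDX2* had 238, 233 and 2338 UMIs. Its levels were 2.39 CPM (2.10 to 2.71), 2.63 CPM (2.30 to 2.99) and 20.7 CPM (19.8 to 21.5). *CDX4* had 54, 84 and 822 UMIs, or 0.542 CPM (0.407 to 0.708), 0.947 CPM (0.755 to 1.17) and 7.26 CPM (6.77 to 7.77). The day 16 library stood apart for both genes, and the intervals of the day 19 libraries lay far below it. The ratio of E16 HS to E19 HS was 7.86 (6.87 to 9.04) for *CDX2* and 7.67 (6.12 to 9.72) for *CDX4*. Both tested members were thus at least 2-fold higher, as were 6.96% of the 12580 genes tested in this comparison, while 6.38% were at least 2-fold lower.

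**Figure D1:**
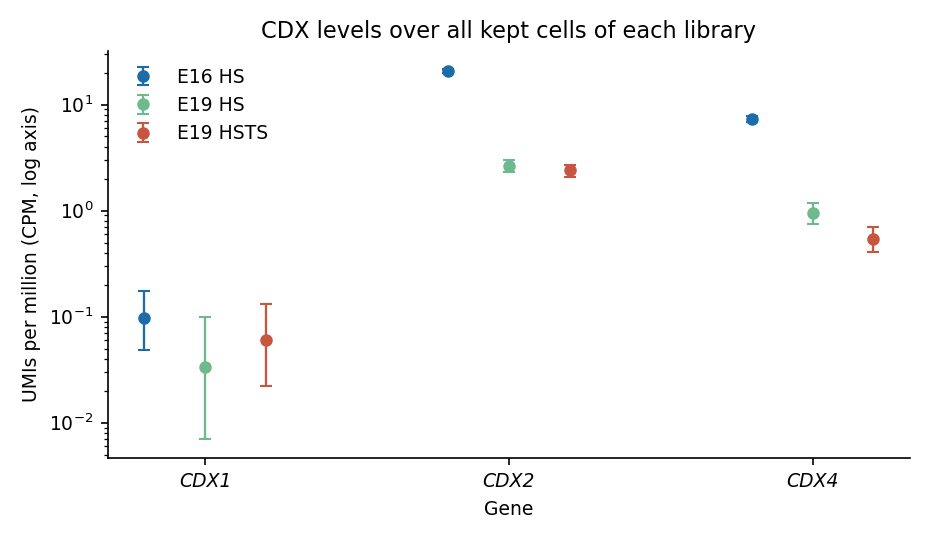
Level of each CDX gene over all kept cells of a library, in CPM on a log axis, with exact Poisson 95% intervals for counting error. *CDX2* and *CDX4* of E16 HS (20.7 and 7.26 CPM) lie above both day 19 libraries, while *CDX1* stays under 0.1 CPM in every library. Heights of different genes are not compared, since 3′ counts depend on each gene's annotated end.

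Between the breeds on day 19 the members differed less. Relative to E19 HS, *CDX2* of E19 HSTS was at 0.910 (0.757 to 1.1), an interval that holds 1. *CDX4* was at 0.573 (0.399 to 0.816), lower in E19 HSTS. That interval held 1 after thinning of the cells to 3000 UMIs, with a ratio of 0.889 (0.482 to 1.62), and without the blood progenitor-like cells, 2636 in E19 HSTS and 1420 in E19 HS, with a ratio of 0.716 (0.495 to 1.03). Neither of the 2 tested members was 2-fold away from E19 HS, as 1.53% of 12439 genes were upward and 2.28% downward. Beside them, *T* itself had 6, 50 and 224 UMIs, a ratio of 0.107 (0.0375 to 0.25) between the day 19 libraries, and *FGF17* had 2, 38 and 388. The fewer *T* UMIs of E19 HSTS thus stood beside nearly the same number of *CDX2* UMIs.

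Shares of cells also set E16 HS apart, while for *CDX2* the order of the day 19 libraries was the opposite of that by level and is not read here. *CDX2* was carried by 176 (1.83%, 1.57 to 2.12), 161 (1.51%, 1.29 to 1.77) and 1213 cells (10.7%, 10.1 to 11.3), and *CDX4* by 50 (0.520%, 0.386 to 0.685), 75 (0.706%, 0.555 to 0.884) and 608 (5.37%, 4.96 to 5.80). The blood progenitor-like cells gave 0.303%, 0.282% and 1.35% for *CDX2* and 0.114%, 0.0704% and 0.599% for *CDX4*, although their median depth of 13946 to 17570.5 UMIs was above the 6348 to 8128.5 of the other cells. After random thinning to 3000 UMIs, which left out 1106, 1345 and 1317 shallower cells, the shares were 0.869%, 0.754% and 5.53% for *CDX2* and 0.235%, 0.291% and 2.39% for *CDX4*. The fullest cell held 12 *CDX2* UMIs and 6 *CDX4* UMIs, both in E16 HS.

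Cells with a UMI of *T* or *FGF17*, called tail bud-marked here, carried both genes most often. The set need not be tail bud alone, since *T* and *SHH* were also on the list of notochord markers. In E19 HS its 37 cells without *CDX2* held 11 *SHH* UMIs and its 20 carriers 0. Whether notochord cells are among them was not tested. *CDX2* was found in 273 of 396 tail bud-marked cells of E16 HS (68.9%, 64.1 to 73.5), in 20 of 57 of E19 HS (35.1%, 22.9 to 48.9) and in 1 of 7 of E19 HSTS. *CDX4* was found in 144 (36.4%, 31.6 to 41.3), 12 (21.1%, 11.4 to 33.9) and 0 of the same cells, and 7 cells allow hardly any statement for E19 HSTS. Where a tail bud marker met *SOX2*, the gene of neural and neuromesodermal progenitors, the shares in E16 HS were highest, with *CDX2* in 78 of 94 cells (83.0%, 73.8 to 89.9) and *CDX4* in 47 (50%, 39.5 to 60.5). Tail bud-marked cells held 3.70% of all UMIs of E16 HS but 25.6% (23.8 to 27.4) of its *CDX2* UMIs and 26.6% (23.6 to 29.8) of its *CDX4* UMIs. In E19 HS they held 0.492% of all UMIs, 17.2% (12.6 to 22.6) of *CDX2* and 15.5% (8.51 to 25) of *CDX4*, and in E19 HSTS 1 of 238 and 0 of 54 UMIs.

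*SOX2*-marked cells carried *CDX2* in 83 of 2140 (3.88%, 3.10 to 4.79), 77 of 2999 (2.57%, 2.03 to 3.20) and 370 of 1621 cells (22.8%, 20.8 to 24.9). For *CDX4* the shares were 1.31% (0.871 to 1.89), 1.57% (1.15 to 2.08) and 14.9% (13.2 to 16.7). Many of these cells also held another marker. In cells with *SOX2* and none of the other markers, *CDX2* was in 56 of 1748 (3.20%, 2.43 to 4.14), 48 of 2372 (2.02%, 1.5 to 2.67) and 93 of 787 (11.8%, 9.64 to 14.3), and *CDX4* in 0.858% (0.481 to 1.41), 1.31% (0.890 to 1.85) and 6.73% (5.08 to 8.72). On day 19 the *SOX2*-marked cells held the larger part of the *CDX4* UMIs, 59.3% in the short-tailed and 61.9% in the Hu sheep library, where they held 18.9% and 26.9% of all UMIs. Mesoderm cells, marked by the somite gene *MEOX1*, were poor in both. *CDX2* was in 1.42% (0.711 to 2.53), 0.914% (0.297 to 2.12) and 4.28% (2.89 to 6.09) of them, and *CDX4* in 2 of 775, 4 of 547 and 12 of 677.

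Epithelial cells were marked by *EPCAM*, and on day 19 those with no other marker separated the members. Over all *EPCAM*-marked cells, *CDX2* was in 77 of 1076 (7.16%, 5.69 to 8.86), 67 of 1416 (4.73%, 3.69 to 5.97) and 633 of 2365 cells (26.8%, 25 to 28.6). *CDX4* was in 14, 19 and 319 of the same cells. Many of these cells also held another of the markers. In cells with *EPCAM* and none of the other markers, *CDX2* was in 49 of 706 (6.94%, 5.18 to 9.07), 35 of 791 (4.42%, 3.10 to 6.1) and 253 of 1350 (18.7%, 16.7 to 20.9). *CDX4* was in 1 of the 706 (0.142%), 1 of the 791 (0.126%) and 78 of the 1350 (5.78%, 4.59 to 7.16). On day 19 these purely epithelial cells thus held *CDX2* but *CDX4* no more often than the blood progenitor-like cells did within counting error. Cells with none of the markers carried *CDX2* in 0.562%, 0.477% and 5.04% and *CDX4* in 0.314%, 0.222% and 2.48% of cases.

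**Figure D2:**
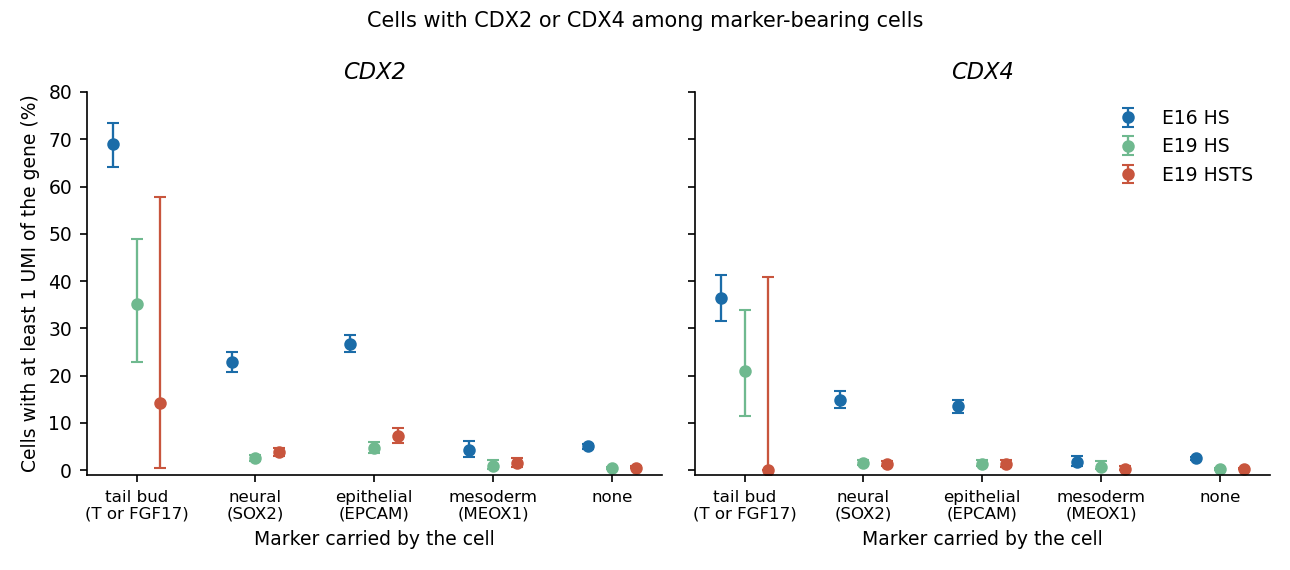
Percent of cells with at least 1 UMI of *CDX2* or *CDX4* among cells that carry each marker, by library, with exact binomial 95% intervals for counting error; a cell can stand under several markers. In E16 HS tail bud-marked cells reach 68.9% and 36.4%, and mesoderm-marked cells lie near the cells with no marker.

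Clustering without the CDX genes placed the carriers in 19 groups of cells, named only as resembling a type. The tail bud-like cluster, led by *SLC2A5*, *DLL3*, *CITED1*, *FGF8* and *DEFB2*, had the highest *CDX2* level in all 3 libraries. Of its marker list only *FGF8* was among the 10 leading genes, but it held 196 of the 224 *T* UMIs and 363 of the 388 *FGF17* UMIs of E16 HS. Its 1138 cells of E16 HS held 1429 *CDX2* UMIs, or 127.5 CPM (121.0 to 134), and its 107 cells of E19 HS held 76, or 100.8 CPM (79.4 to 126). The ratio within this cluster was 1.27 (1.00 to 1.62), against 7.86 for the whole libraries. For *CDX4* the levels were 50.3 CPM (46.3 to 54.7) and 43.8 CPM (30.1 to 61.4), a ratio of 1.15 (0.810 to 1.69). The tail bud-like cells made up 61.1% of the *CDX2* UMIs and 68.6% of the *CDX4* UMIs of E16 HS, and 32.6% and 39.3% of those of E19 HS.

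In E19 HSTS only 35 cells fell into the tail bud-like cluster, and they held 4 *T* UMIs and 0 *FGF17* UMIs. Of these cells 7 carried *CDX2*, with 10 UMIs or 33.8 CPM (16.2 to 62.1), and 4 carried *CDX4*, with 5 UMIs or 16.9 CPM (5.48 to 39.4). Relative to E19 HS, *CDX2* was at 0.335 (0.154 to 0.651) and *CDX4* at 0.386 (0.118 to 0.995) of the level in this cluster. In 3 other clusters *CDX2* was higher in E19 HSTS. In the spinal cord and neural tube-like cluster its level was 6.01 CPM (78 UMIs) against 3.44 CPM (62 UMIs), a ratio of 1.75 (1.24 to 2.48). In the gut-like cluster it was 19.0 CPM (15.0 to 23.7) and 12.2 CPM, a ratio of 1.55 (1.09 to 2.22), and in one of the somite-like clusters 1.68 CPM (20 UMIs) and 0.399 CPM (5 UMIs). For *CDX4* the ratio in the neural cluster was 1.11 (0.651 to 1.88), an interval that holds both 1 and the *CDX2* ratio. In that somite-like cluster *CDX4* was at 2.11 (0.656 to 7.85), so these counts do not separate the 2 genes. With the tail bud-like cells left out of both libraries, an alternative added after the data were seen, *CDX2* of E19 HSTS was at 1.29 (1.05 to 1.59) and *CDX4* at 0.851 (0.563 to 1.29) of the E19 HS level. The interval for *CDX2* thus moved from one that held 1 to one above it.

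The gut-like cluster, led among others by *CLDN7*, *EPCAM* and *KRT7* but also by the surface ectoderm genes *DLX5* and *TFAP2A*, had the next highest *CDX2* level. It held 78 of the 238 (32.8%), 58 of the 233 (24.9%) and 230 of the 2338 *CDX2* UMIs (9.84%), and its level in E16 HS was 39.8 CPM (34.8 to 45.3). Of *CDX4* it held 1 of 54, 1 of 84 and 12 of 822 UMIs. The spinal cord and neural tube-like cluster held both, with 28 of 54 *CDX4* UMIs (51.9%) in E19 HSTS and 35 of 84 (41.7%) in the Hu sheep library of the same day. In E16 HS further *CDX2* lay in a shallow unnamed cluster of 1385 cells led by *KRT8*, *CRABP2* and *LIN28A* (38.4 CPM) and in a somite-like cluster (14.6 CPM, against 0.399 CPM in E19 HS). The mesenchyme-like cells of E16 HS, at 2.26 CPM, were near the 1.48 CPM of its blood progenitor-like cells.

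**Figure D3:**
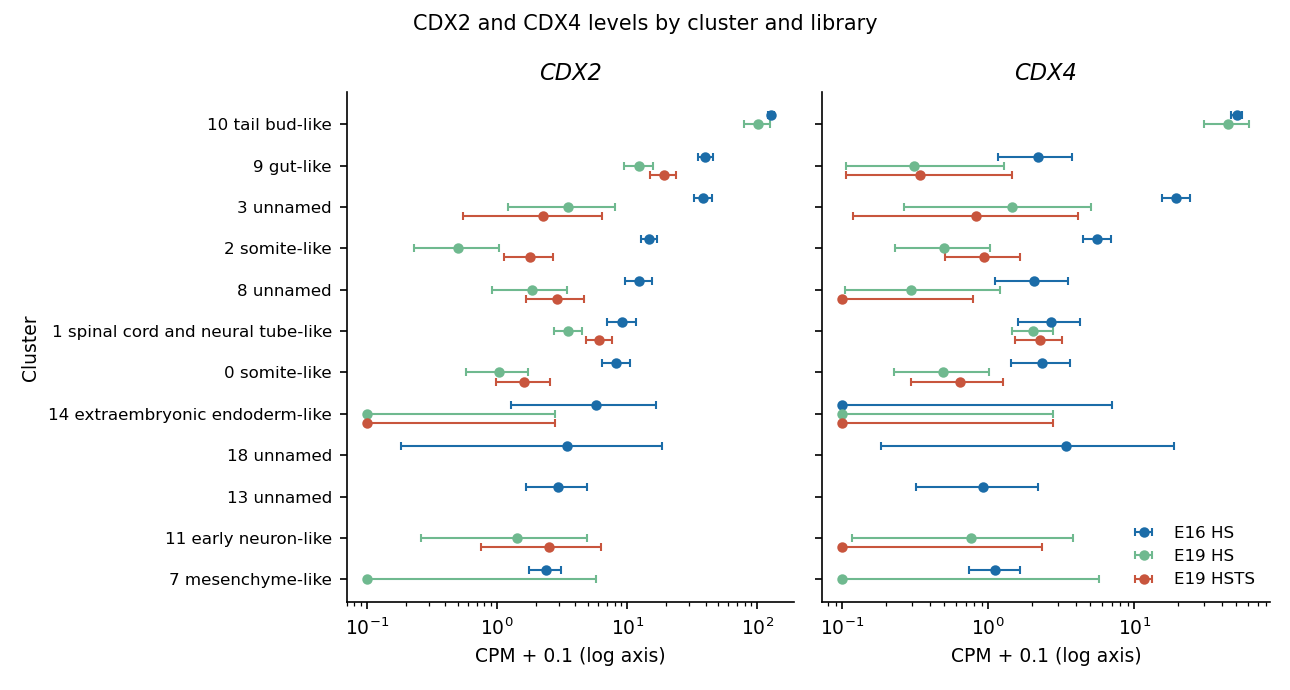
Level of *CDX2* and *CDX4* in the 12 clusters with the highest *CDX2* levels, by library, as CPM plus 0.1 on a log axis with exact Poisson 95% intervals for counting error; only cluster and library pairs of at least 50 cells are drawn, so the 35 tail bud-like cells of E19 HSTS are missing. *CDX2* and *CDX4* are both highest in the tail bud-like cluster, and the gut-like cluster is high for *CDX2* alone.

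The members shared cells. Of the cells with *CDX4*, 382 of 608 in E16 HS (62.8%), 21 of 75 in E19 HS (28.0%) and 9 of 50 in E19 HSTS (18.0%) also had *CDX2*. If both genes fell on cells independently, 65.1, 1.14 and 0.915 cells would hold both. The excess was smaller within the tail bud-like cluster of E16 HS, where 279 cells held both beside 225.9 under independence, than within its *SOX2*-marked cells, with 175 beside 55.0. Deeper cells show more genes, and the part of depth in these counts was not tested. Across 43 pairs of cluster and library with at least 50 cells, log2(CPM + 1) of *CDX2* and *CDX4* had a Pearson r of 0.84, a description over points that share libraries and depth.

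The 5 genes most like *CDX2* over these pairs, of 7542 with a symbol and at least 500 UMIs, were *SLC2A5*, a fructose carrier (r = 0.84), *FGF8*, the tail bud growth factor (0.81), the claudin gene *CLDN10* (0.79), *ERICH2* (0.76) and *PABPC1*, a poly(A)-binding protein (0.76). For *CDX4* they were the defensin gene *DEFB2* (0.89), *SLC2A5* (0.80), *PABPC1* (0.75), *MLLT3* (0.73) and *CER1*, a secreted inhibitor made in the forming somites (0.71). Of these genes *SLC2A5*, *FGF8*, *ERICH2*, *DEFB2* and *CER1* lead the tail bud-like cluster. With 33 finer clusters and 74 pairs, 2 of the 5 genes for *CDX2* and 4 of the 5 for *CDX4* came up again.

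Within the tail bud-like cluster of E16 HS the carriers differed from the other cells. The 654 cells with *CDX2* (57.5%, 54.5 to 60.4) were set against the 484 without. The carriers were deeper, with a median of 9502 against 8452 UMIs, and the part of depth in the ratios was not tested. Of 20 posterior genes tested, drawn from a list of tail bud and CDX network genes, 4 were at least 2-fold higher and 1 was at least 2-fold lower, beside 0.904% and 0.508% of 7083 genes. Higher were *CYP26A1*, which clears retinoic acid from the tail bud, at 2.34 (1.71 to 3.24), *T* at 2.17 (1.54 to 3.10), *GREB1* at 2.10 (1.26 to 3.66) and *FGF8* at 2.03 (1.81 to 2.28), each as the ratio of the level in *CDX2*-bearing cells to that in the others. *CDX4* was at 1.86 (1.54 to 2.27). Lower was *RIPPLY2*, a gene of the newly forming somite, with 29 UMIs against 190, a ratio of 0.0957 (0.0624 to 0.142).

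Genes of the somite front were low in both kinds of carrier. *CER1* had 33 UMIs in the *CDX2*-bearing cells and 603 in the others, a ratio of 0.0343 (0.0234 to 0.0487), and *MEOX1* had 34 and 260, a ratio of 0.0820 (0.0556 to 0.118). In the 393 cells with *CDX4* against the 745 without, *CER1* was at 0.0440 (0.0255 to 0.0711), *MEOX1* at 0.0862 (0.0476 to 0.145) and *RIPPLY2* at 0.126 (0.0709 to 0.210). *CER1* therefore resembled *CDX4* from cluster to cluster but was scarce in the very cells that held it. None of the 20 posterior genes tested was 2-fold higher with *CDX4* and 1 was 2-fold lower, beside 0.452% and 0.649% of all genes. *SOX2* was at 2.32 (2.10 to 2.57) with *CDX4* and at 1.76 (1.57 to 1.98) with *CDX2*. The cells with *CDX4* were also deeper than those without, with a median of 9843 against 8760 UMIs.

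In E19 HS the 42 carriers and 65 other tail bud-like cells gave 5 posterior genes to test, of which *FGF8* at 2.52 (1.68 to 3.83) was 2-fold higher and none lower, beside 1.35% and 1.02% of 1772 genes. *SOX2* was at 2.05 (1.31 to 3.26) there. These carriers had a median of 7160.5 against 6201 UMIs. With cells taken by *T* or *FGF17* in place of the cluster, 2 of 14 posterior genes were 2-fold higher and none lower in E16 HS, *CYP26A1* at 2.59 (1.65 to 4.26) and *SALL4*, a pluripotency and progenitor factor, at 2.55 (1.58 to 4.30), beside 1.24% and 0.62% of 4999 genes. In E19 HS none of 5 passed in either direction, beside 2.18% and 1.55% of 1099 genes.

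Cells with only one of the members were compared as well. The 375 cells with *CDX2* and no *CDX4* held *SOX2* at 0.586 (0.495 to 0.697) of the level in the 114 cells with *CDX4* and no *CDX2*, and *HOXA2* at 0.498 (0.322 to 0.781). *T* was at 1.84 (1.02 to 3.59) and *FGF8* at 1.54 (1.28 to 1.88). None of the 14 posterior genes tested passed 2-fold in either direction, and of 19 *HOX* genes *HOXA11* was 2-fold higher (2.14, 1.1 to 4.63) and *HOXA2* 2-fold lower, beside 1.21% and 0.231% of 5204 genes. A cell without a UMI may still express the gene, so these sets are mixed.

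Among *SOX2*-marked cells the carriers of *CDX2* stood out for *HOX* genes, the classical CDX targets. Of the 370 such carriers of E16 HS, 267 also held *EPCAM* and 78 a tail bud marker. In E16 HS 15 of 23 *HOX* genes tested were at least 2-fold higher in *CDX2*-bearing cells and none was 2-fold lower, beside 2.99% and 1.86% of 7748 genes, and their median ratio was 3.43 beside 1.13 over all genes. The largest ratios belonged to *HOXD9* with 15.4 (8.86 to 28.8), *HOXC10* with 10.4 (6.37 to 17.7), *HOXD8* with 6.82 (4.48 to 10.6) and *HOXA9* with 6.81 (5.16 to 9.07), while *HOXA2*, of the hindbrain, was at 1.1 (0.815 to 1.46). In E19 HSTS 13 of 25 were 2-fold higher and none lower (3.72% and 5.48% of 8288 genes). In E19 HS 9 of 23 were higher and 2 lower (5.06% and 5.47% of 8472 genes), *HOXA2* at 0.446 (0.213 to 0.826) and *HOXC5* at 0.444 (0.0111 to 2.56), which rests on 1 UMI against 67 and has an interval that holds 1. The *CDX2*-bearing cells were deeper than the others, with a median of 8585 against 7786, 8274 against 7075.5 and 9883 against 7921 UMIs, and the part of depth in these ratios was not tested.

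Paralogue groups 10 to 13, the genes of the lumbar to tail levels, showed the widest gap. Their summed level in *SOX2*-marked cells with and without *CDX2* was 70.5 CPM (53.9 to 90.6) and 7.78 CPM (6.54 to 9.18) in E19 HSTS, 168.6 CPM (140.9 to 200) and 5.50 CPM (4.58 to 6.54) in E19 HS, and 36.5 CPM (31.1 to 42.7) and 5.55 CPM (4.28 to 7.07) in E16 HS. In E19 HS 73 of the 131 UMIs behind this were of *HOXC12*, which had 36 in the far larger set of other cells, a ratio of 60.3 (39.9 to 92.5). Groups 1 to 4 differed less on day 19, with 188 and 124 CPM in E19 HSTS and 124 and 105 CPM in E19 HS. The gap was not confined to tail bud-like cells, since in the spinal cord and neural tube-like cluster groups 10 to 13 were at 49.8 and 7.34 CPM in E19 HSTS and at 48.9 and 2.91 CPM in E19 HS, while E16 HS had 1 and 0 UMIs there. All *HOX* genes together gave smaller counts in that cluster. At least 2-fold higher were 5 of 19, 2 of 20 and 7 of 14, beside 4.15%, 4.89% and 3.25% of all genes, and at least 2-fold lower were 2, 2 and 0, beside 5.53%, 6.56% and 4.43%. *HOXC9* of E16 HS was at 5.40 (3.86 to 7.46).

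The *HOX* level of the carriers also differed between the stages. Within the tail bud-like cluster groups 10 to 13 were at 64.2 CPM (58.3 to 70.5) in *CDX2*-bearing cells of E16 HS and at 612 CPM (532 to 701) in those of E19 HS, where groups 5 to 9 were at 696 and 627 CPM. The cells of the same cluster without *CDX2* had 35.0 and 375 CPM of groups 10 to 13. The 28 cells of E19 HSTS without *CDX2* in this cluster had 171 CPM (121 to 234), and its 7 carriers were not summed. Over whole libraries *HOXC12* of E19 HSTS had 31 UMIs against 252 in E19 HS, a ratio of 0.110 (0.0729 to 0.160), whereas *HOXA13* was at 1.41 (1.05 to 1.91).

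**Figure D4:**
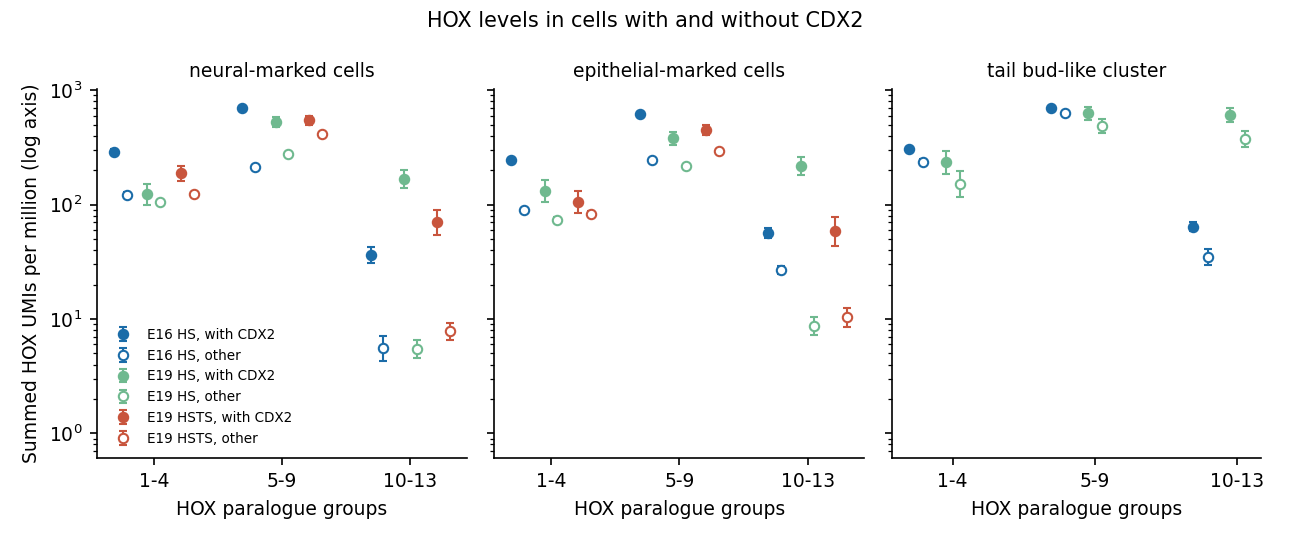
Summed level of *HOX* paralogue groups in cells with *CDX2* (filled) and without (open), by library, in CPM on a log axis with exact Poisson 95% intervals for counting error, for *SOX2*-marked cells, *EPCAM*-marked cells and the tail bud-like cluster, which is not drawn for E19 HSTS. In *SOX2*-marked cells filled points lie above open ones most widely for groups 10 to 13, such as 168.6 against 5.50 CPM in E19 HS.

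Posterior genes were also high in the *SOX2*-marked carriers of E16 HS. There 12 of 16 genes tested were at least 2-fold higher and none lower, beside 2.99% and 1.86% of all genes, led by *T* at 30.2 (12.2 to 96.5), *CYP26A1* at 11.2 (7.33 to 17.5), *FGF17* at 10.9 (6.36 to 19.8), *FGF8* at 10.7 (9.04 to 12.8) and *CDX4* at 9.54 (7.43 to 12.4), and the lowest was *LIN28B* at 0.698 (0.651 to 0.747). In E19 HS 3 of 13 were higher and none lower, beside 5.06% and 5.47%, with *CDX4* at 12.1 (6.14 to 22.5), *FGF8* at 2.97 (1.87 to 4.53) and *LEF1* at 2.14 (0.956 to 4.20). In E19 HSTS 0 of 12 were higher and *DLL3* was lower at 0.304 (0.138 to 0.581), beside 3.72% and 5.48%. *CDX4* was at 9.46 (4.00 to 20.8) in that library, with 10 UMIs against 22, and was not counted as it missed the minimum of 50. Carriers of *CDX4* among the *SOX2*-marked cells of E16 HS had 9 of 16 posterior genes and 15 of 23 *HOX* genes at least 2-fold higher and none lower, beside 2.87% and 2.26% of genes. For carriers of *CDX2* among the *SOX2*-marked cells of E16 HS, 4 of 7 posterior genes tested were 2-fold higher after thinning to 3000 UMIs, beside 2.75% of genes.

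In *EPCAM*-marked cells of E16 HS the carriers of *CDX2* were high in posterior and low in trophoblast genes. Posterior genes were at least 2-fold higher in 15 of 19 tested and *HOX* genes in 19 of 27, beside 2.99% of 9027 genes. Of these 633 carriers, 267 also held *SOX2* and 177 a tail bud marker, so these counts and those of *SOX2*-marked cells are not separate results. Over all *CDX2* carriers of E16 HS, 654 lay in the tail bud-like cluster and 44 in the spinal cord and neural tube-like cluster. Of 8 trophoblast genes 5 were at least 2-fold lower, beside 3.2% of genes, with *PTGS2* at 0.113 (0.0302 to 0.299), *TFAP2A* at 0.260 (0.173 to 0.379), *GATA3* at 0.327 (0.242 to 0.433), *KRT7* at 0.333 (0.300 to 0.370) and *ELF5* at 0.456 (0.296 to 0.679). The median over the 8 was 0.395. *TFAP2A*, *GATA3* and *KRT7* are also expressed in surface ectoderm and other epithelia. *HOXA13*, of the hindgut end and the allantois, was low among carriers, with 16 UMIs against 143, a ratio of 0.297 (0.165 to 0.499). On day 19 posterior genes were 2-fold higher in 7 of 12 tested in E19 HS, led by *DLL3* at 5.51 (3.89 to 7.66), and in 1 of 11 in E19 HSTS, *WNT5B* at 3.63 (1.75 to 6.95), beside 4.04% and 2.89% of genes. In the other direction 0 and 1 of them were called, beside 8.12% and 6.6%. The carriers were shallower than the other *EPCAM*-marked cells on day 19, with medians of 8616 against 10352 and 7747 against 8579 UMIs, and about as deep in E16 HS.

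Inside the gut-like cluster, *CDX2* lay in cells high in *TTR* and low in *SOX2* and *IRX3*. *TTR*, a thyroid hormone carrier of endoderm, was at 15.2 (11.2 to 20.6) in the 45 carriers of E19 HSTS against the other 353 cells, at 9.90 (5.56 to 17.1) in the 33 of E19 HS and at 3.22 (2.57 to 4.03) in the 109 of E16 HS. *SOX2*, here a gene of foregut and ectoderm, was low in all 3 libraries, at 0.299 (0.153 to 0.529), 0.192 (0.0703 to 0.421) and 0.303 (0.204 to 0.435), and so was *IRX3*, at 0.230 (0.0618 to 0.600), 0.312 (0.0843 to 0.808) and 0.457 (0.326 to 0.627). These were the 2 genes of a foregut list that could be tested, both at least 2-fold lower in each library beside 4.58%, 9.17% and 3.14% of genes. In E19 HS the other cells held 603 *SOX2*, 248 *IRX3* and 205 *TFAP2A* UMIs. Of that list they held 32 of *PAX8*, 17 of *ISL1*, 7 of *PAX9* and 4 of *NKX2-1*. Whether the other cells are foregut or surface ectoderm was not tested, so the 2 genes are not read as a foregut result. Of a list of hindgut and endoderm genes 1 of 6, 1 of 6 and 3 of 8 were at least 2-fold higher and 0, 1 and 2 lower, so the list did not go one way. In E16 HS the intestinal genes *TFF3* at 3.86 (2.16 to 6.93) and *VIL1* at 2.38 (1.45 to 3.87) were higher beside *TTR*, 8 of 10 *HOX* genes were at least 2-fold higher beside 1.71% of 5602 genes, with *HOXC6* at 4.88 (2.98 to 8.10) and *HOXB9* at 4.64 (3.53 to 6.11), and the keratin gene *KRT19* was at 0.473 (0.454 to 0.494). The carriers had a median of 8364 against 9846, 6767 against 8372 and 10305 against 8501 UMIs. In E19 HSTS 3 of 6 *HOX* genes were 2-fold higher, beside 3% of genes, while in E19 HS only *HOXA3* had enough UMIs, 1 against 59, and was at 0.328 (0.00816 to 1.90), beside 4.91% of genes higher. The summed level of *HOX* groups 5 to 9 was 354 CPM (298 to 416) in carriers and 129.8 CPM (118 to 142) in the other cells of E19 HSTS, 239.7 CPM (181 to 311) and 45.6 CPM (39.6 to 52.3) in E19 HS, and 436 CPM (400.2 to 474) and 140.3 CPM (129.6 to 152) in E16 HS. *FGF8* was low in the carriers here, at 0.0410 (0.00103 to 0.231), 0.211 (0.0254 to 0.774) and 0.214 (0.0428 to 0.664).

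Over whole libraries the posterior list was compared without the CDX genes. From E19 HS to E16 HS 13 of 20 genes tested were at least 2-fold higher and 1 lower, beside 6.96% and 6.38% of all genes, with a median ratio of 2.24 beside 1.17 over all genes. The highest were *HES7*, the segmentation clock gene, with 105 UMIs against 6, a ratio of 13.7 (6.09 to 38.2), and *FGF17* at 8 (5.73 to 11.5), and the lowest was *LFNG* at 0.490 (0.421 to 0.569). Between E19 HSTS and E19 HS none of 17 was 2-fold higher and 2 were lower, *T* and *CYP26A1* at 0.477 (0.313 to 0.717), beside 1.53% and 2.28% of all genes, with a median of 0.791 beside 0.963. Both comparisons share E19 HS. These levels include the blood progenitor-like cells, 2636 in E19 HSTS and 1420 in E19 HS, with medians of 17492.5 and 17570.5 UMIs. The other cells had medians of 7249.5 and 6348 UMIs. The list was not compared without the blood progenitor-like cells, and their part in the lower day 19 ratios was not tested. *CYP26A1*, with 38 against 71 UMIs, lay close to the 2-fold limit.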

How the data were processed

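The authors aligned reads to Ovis_aries_genome_v1.0 and counted UMIs with Cell Ranger 6.1.2, and the deposited values are raw counts per gene and cell barcode of whole embryos from 3 libraries. The deposited libraries held 107817481 (E19 HSTS), 94754580 (E19 HS) and 128271878 (E16 HS) UMIs, which sets the width of the intervals. UMIs of kept cells were summed in Python 3.11.15 (scipy 1.17.1), and levels were given per 1000000 UMIs with exact Poisson intervals, and shares with exact Clopper-Pearson intervals. A ratio was called at 2-fold for genes with at least 50 UMIs on both sides together, and a side with 0 UMIs was set to 3. Of the 37 posterior genes 35 were in the table. Cells were clustered in Seurat 5.3.0 on 2000 variable genes without the CDX genes, with 25 components and resolution 0.25. Harmony and imputation were not used. A cluster took the name of the marker list with most members among its 10 leading genes and at least 3 markers detected. Scrublet called 2, 1 and 202 doublets, so it did not work for the day 19 libraries, and no cell was removed for it. The ratio intervals were checked on day 19 counts of 12439 genes simulated as Poisson draws, the model that the intervals assume. There 97% of the 200 genes given a known fold had it inside their interval. This checks the calculation and says nothing about variation between cells or embryos. Alternatives were TMM scaling (edgeR 4.0.16), thinning, other cell, gene and marker minimums, single markers, finer clusters, and leaving out blood or tail bud-like cells or the highest doublet scores.

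The members and lists were chosen with earlier results of these data known. The genes named are the members, their markers, the highest and lowest of the lists, and the 5 most like genes. *CER1* and *MEOX1* in the tail bud-like cluster, the comparisons by *CDX4* and those within clusters were added after values were seen, and further genes of the lists were named after their values were seen. No sequence was printed, and positions served only for the order of neighbouring genes in the RefSeq table.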

Additional observations from a re-analysis of the deposited data

How the results depend on the processing

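Each library was the only one of its condition, so no sample could be left out. No paired analysis was possible because each group has a single replicate and no test was run. Under every alternative run, the ratios of E16 HS to E19 HS for *CDX2* and *CDX4* stayed above 2, and those between the day 19 libraries stayed within 2-fold. The day 19 ratio of *CDX2* lay above 1 after thinning (1.05) and in the settings without blood progenitor-like or without tail bud-like cells, and below 1 in the others. The ratio of E19 HSTS to the Hu sheep library of the same day was 1.15 for *CDX2* without blood progenitor-like cells and 0.889 for *CDX4* after thinning to 3000 UMIs. TMM scaling gave 6.80 for *CDX2* of E16 HS over E19 HS. Without tail bud-like cells, a setting chosen after seeing the data, the ratios were 1.29 and 4.99 for *CDX2* and 0.851 and 4.36 for *CDX4*.

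Thinning gave shares of cells with *CDX2* of 0.869%, 0.754% and 5.53%, and with *CDX4* of 0.235%, 0.291% and 2.39%. Asking for 2 UMIs gave 0.405%, 0.461% and 4.95% for *CDX2* and 0.0416%, 0.0659% and 1.32% for *CDX4*, as fewer cells can pass. With *T* alone as the marker, tail bud-marked cells held 9.87% of the *CDX2* UMIs of E19 HS and 11.8% of those of E16 HS, and 7.14% and 13.3% of *CDX4*. With *FGF17* alone they held 0%, 9.44% and 19.97% of *CDX2* and 20.2% of the *CDX4* of E16 HS. Leaving out the highest doublet scores left 0% of *CDX2* in those of E19 HSTS, where the main value was 1 UMI. With 33 clusters the highest *CDX4* level among clusters of at least 50 cells in E19 HSTS was 3.28 CPM, beside 2.16 CPM.

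Counts of posterior genes at least 2-fold higher in *CDX2*-bearing cells changed with the gene minimum and with thinning, which leave other numbers of genes to test and, for thinning, other carriers; the part of each was not tested. In tail bud-marked cells of E16 HS the 2 of 14 genes tested (1.24% of all genes) became 0 of 8 (0.174%) with a minimum of 200 UMIs and 0 of 6 (0.279%) after thinning. In *EPCAM*-marked cells the counts of 1 of 11, 7 of 12 and 15 of 19 became 0 of 5, 3 of 5 and 9 of 12 with that minimum (0.948%, 1.22% and 2.03% of all genes) and 0 of 1, 0 of 2 and 6 of 10 after thinning (5.61%, 24.4% and 2.52%). In *SOX2*-marked cells of E19 HSTS the 0 of 12 became 1 of 14 (9.27%) with a minimum of 20 UMIs and 4 of 8 (14.8%) after thinning to 28 carriers. In those of E19 HS the 3 of 13 became 5 of 16 (13.4%) with a minimum of 20, 1 of 9 (1.41%) with 200 and 1 of 8 (26%) after thinning, and in those of E16 HS the 12 of 16 became 7 of 9 (2.01%) with 200 and 4 of 7 (2.75%) after thinning. A side with 0 UMIs was set to 3 whatever the number of its cells. With few carriers, a gene without any UMI in them can thus be called 2-fold higher. The day 19 counts and shares with a minimum of 20 UMIs or after thinning are therefore not read as genes higher in carriers. *CDX1* is limited by its 20 UMIs in all.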
